A study of Homo sapiens with 12 samples.

Results

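The clustered protocadherins are the genes of the PCDHA, PCDHB and PCDHG families, which sit side by side on chromosome 5. The members were taken by symbol, as every row of the gene count table whose name is PCDHA, PCDHAC, PCDHB, PCDHGA, PCDHGB or PCDHGC followed by a number. This gave 55 of the 33121 rows, made up of 15 alpha, 18 beta and 22 gamma members. In the GENCODE 44 annotation of GRCh38 they run over 727 kb, from chr5:140786136 to chr5:141512977, all on the plus strand, and 2 of the beta members (PCDHB17 and PCDHB18) are now annotated as pseudogenes.

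RNA was sequenced from 12 samples of HEK293T, a human embryonic kidney cell line, in 4 groups of 3. The groups were WT cells left untreated, WT cells given 10 ng/ml of the cytokine TNFα for 3 h, NFKB1 S80A cells left untreated and NFKB1 S80A cells given the same treatment. The S80A cells carry an edit of NFKB1 that changes serine 80 of the NF-κB subunit p50 to alanine. They were made by CRISPR/Cas9 with a repair oligonucleotide and were taken through dilution to single cell clones. The number of clones behind the 3 samples is not given in the sources used here, so the edit and the history of a clone cannot be told apart. The WT samples are the parental line, for which no cloning is described.

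Clustered protocadherins are cell surface adhesion proteins related to cadherins, best known from neurons. Each alpha and gamma variable exon has its own promoter, encodes the extracellular and transmembrane parts of 1 isoform, and is spliced to constant exons that encode a shared intracellular end. Beta members have a single exon and no constant part. A neuron uses a small and partly random set of these promoters, and the choice involves DNA methylation, the DNA-binding protein CTCF and the cohesin ring. The C-type members at the ends of the alpha and gamma clusters (PCDHAC1, PCDHAC2, PCDHGC3, PCDHGC4 and PCDHGC5) are known to be used more constitutively in neurons. Because a cloned population descends from 1 cell and the parental line is a mixture, the comparison of interest is which isoforms the WT and the S80A cells used, and at what level.

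The junctions between variable and constant exons show why much of an alpha or gamma transcript cannot be assigned to its gene. The last 30 bases of the variable exon are in lower case and the first 30 bases of the shared constant exon are in capitals, read from GRCh38, plus strand, for the 3 gamma members and the 1 alpha member with the most reads.
PCDHGC3: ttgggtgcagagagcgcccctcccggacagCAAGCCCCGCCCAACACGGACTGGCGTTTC
PCDHGA11: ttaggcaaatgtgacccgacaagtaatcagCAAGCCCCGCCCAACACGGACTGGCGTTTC
PCDHGC4: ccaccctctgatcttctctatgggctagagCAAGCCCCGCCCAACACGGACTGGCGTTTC
PCDHA10: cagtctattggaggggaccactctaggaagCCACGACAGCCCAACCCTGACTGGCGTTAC
The variable exons lie at chr5:141475966-141478546 (PCDHGC3), chr5:141421051-141423660 (PCDHGA11), chr5:141485030-141487615 (PCDHGC4) and chr5:140855897-140858436 (PCDHA10). All 22 gamma members continue into the same constant exon at chr5:141494807-141494865, and all 15 alpha members into that at chr5:140978949-140979007. The constant exons add up to 2177 bases in each gamma member and 2869 in each alpha member. They made up 44.8% to 45.9% of the canonical gamma transcripts and 48.7% to 53.7% of the canonical alpha transcripts. HTSeq-count in its default mode sets aside a read that fits several genes, and the mode used here is not given in the sources used here. Members such as PCDHA3 and PCDHAC2 had 0 reads in all samples, while PCDHA10, which shares their constant exons, had 78. The counts of alpha and gamma members are therefore taken as reads from the variable exons, with an unknown part of the junction reads.

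Some members also resemble each other within their own exons. Of all 75-base windows in the unshared exon of PCDHGC3, PCDHGA11, PCDHGC4 and PCDHGA7, 0% occurred a further time in the locus. The rest of the genome was not searched. In 17 of the 18 beta members over 5% of the windows were repeated, up to 36.0% in PCDHB8. The same was so for 4 of the 15 alpha members, up to 25.1% in PCDHA9, and 11 of the 22 gamma members, up to 17.3%. For PCDHB2 the share was 15.4%, and 70 bases of its exon also overlap an exon of the antisense gene PCDHB1-AS1. How the counting treated strand is not given in the sources used here. Levels of beta members are thus less certain than those of the leading gamma members.

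Most of the variable exons have a promoter with a short conserved element that contains the letters CGCT. RefSeq promoters of GRCh38.p14, 250 bases before to 50 after each annotated start, were matched to 47 of the 55 members. CGCT stood on either strand in 46 of these 47 (97.9%), against 71.9% of all 27305 genes with a promoter. On the sense strand and between 100 and 20 bases before the start, it stood in 43 of 47 (91.5%), against 26.6% of all promoters. This narrower window was chosen after the promoters had been looked at. The 9-letter motif AGNNGGCGC, a short form of the CTCF core, stood on either strand in 3 of 47 (6.38%), against 12.3% of all promoters, and no match says only that these letters are not in the window. A match to these 4 letters does not by itself mark the conserved element. The match is shown with 14 bases on each side, CGCT in capitals and plus strand, for members among those with the most reads in each cluster and for PCDHA4, which had no read.
PCDHGA11, chr5:141420974-141421005: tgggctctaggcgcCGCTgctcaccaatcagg
PCDHGC4, chr5:141484954-141484985: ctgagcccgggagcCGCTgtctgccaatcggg
PCDHA10, chr5:140855843-140855874: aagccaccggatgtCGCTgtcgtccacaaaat
PCDHA4, chr5:140806981-140807012: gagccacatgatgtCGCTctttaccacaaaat
PCDHB2, chr5:141094546-141094577: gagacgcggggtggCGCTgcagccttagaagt
PCDHB15, chr5:141245316-141245347: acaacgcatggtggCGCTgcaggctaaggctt
PCDHB14, chr5:141223265-141223296: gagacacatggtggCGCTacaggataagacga
In the sequences shown, CGCT began 40 (PCDHA10) to 73 (PCDHA4) bases before the start. GGTGGCGCTG, the most frequent run of 10 letters with CGCT in the members' promoters and so chosen from them, stood on either strand in 12 of 14 beta promoters and in 0 of 13 alpha and 0 of 20 gamma promoters. It stood in 0.341% of all promoters. The promoters of PCDHA10, the leading alpha member, and of the unread PCDHA4 both carried CGCT in this window, so its presence alone did not separate a read member from an unread one.

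HEK293T cells used few clustered protocadherins, and all at low levels. The 12 libraries held 15624878 to 20889577 counted reads each, and of the 222448405 in all, 2395 fell on the 55 members, or 10.8 CPM (counts scaled by the library total). Gamma members took 79.3% of these reads, beta members 15.8% and alpha members 4.93%. The 3 gamma members PCDHGC3 (811 reads over all samples), PCDHGA11 (635) and PCDHGC4 (155) took 66.8% of all member reads. In bulk samples a few cells with much RNA and many cells with little cannot be told apart.

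Of the 55 members, 47 had at least 1 read and 8 had none in any sample. The unread members were PCDHA3 to PCDHA8, PCDHAC2 and PCDHB1. A count of 0 in all samples allows a level of up to 0.0135 CPM, for counting error only. This limit does not cover reads that fit several members. In PCDHA6, PCDHA7 and PCDHA8, 17.0% to 25.0% of the 75-base windows were repeated in the locus. With more than 3 counts in at least 2 of the 3 samples as the rule for detection, 7 members were detected in untreated WT cells, 9 in WT cells with TNFα, 6 in untreated S80A cells and 7 in S80A cells with TNFα. Each group had 1 alpha member (PCDHA10) and the same 4 gamma members (PCDHGC3, PCDHGA11, PCDHGC4 and PCDHGA7) on its list, and these 5 were detected in all groups. The groups differed in the beta members on the list. PCDHB14 was detected in both WT groups and in neither S80A group, and PCDHB12 in WT cells with TNFα alone. PCDHB15 was missing in untreated WT cells, and PCDHB2 in untreated S80A cells. These beta members had at most 20 counts in a sample, so a detection call could turn on a few reads.

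**Figure D1:**
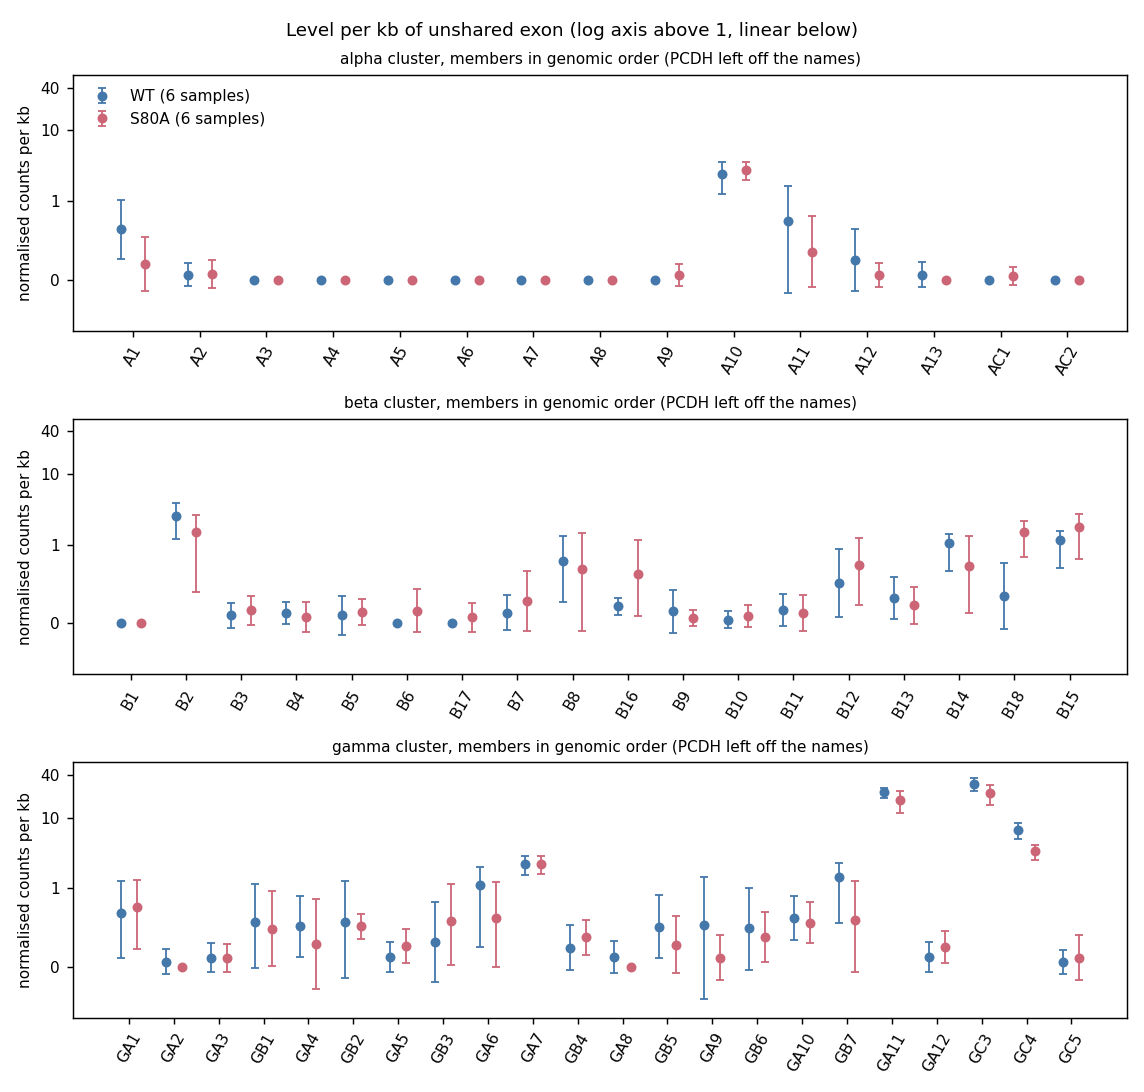
Level of each of the 55 members, as normalised counts per kb of exon that no other named gene shares, in genomic order within the alpha, beta and gamma clusters. Points are means and bars SDs over 6 WT samples (blue) or 6 S80A samples (red), and the axis is logarithmic above 1 and linear below. PCDHGC3 and PCDHGA11 stand above the other members in both genotypes. PCDHGC4 comes next, and in S80A cells its bar overlaps that of PCDHA10. Most alpha members lie at or near 0.

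Levels were compared between members as normalised counts (counts scaled to a common library size) per kb of unshared exon. In WT cells PCDHGC3 was highest at 29.7 ± 6.15 per kb (SD, n = 6), followed by PCDHGA11 at 22.6 ± 3.49 and PCDHGC4 at 6.64 ± 1.61. PCDHB2 (2.51 ± 1.33), PCDHA10 (2.40 ± 1.14) and PCDHGA7 (2.18 ± 0.644) came next and did not differ from each other beyond their spread. In S80A cells the order began in the same way, with PCDHGC3 at 22.1 ± 7.17 per kb, PCDHGA11 at 17.7 ± 6.25 and PCDHGC4 at 3.33 ± 0.811. PCDHA10 (2.74 ± 0.765) then followed PCDHGC4 within its spread, and PCDHGA7 (2.23 ± 0.658) came below that spread. In WT cells the mean of PCDHGC3 lay above that of PCDHGA11 by more than the SD of either, and in S80A cells by less.

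PCDHGC3 is a C-type gamma member and the one with the most reads. Its normalised counts were 101, 84.1 and 53.6 in untreated WT cells and 75.8, 69.1 and 76.3 in WT cells with TNFα. In untreated S80A cells they were 57.5, 26.4 and 63.4, and in S80A cells with TNFα 77.8, 70.8 and 46.1. The samples of the 2 genotypes overlapped in both treatments, with the lowest value in untreated S80A replicate 2. The log2 fold change of S80A against WT, averaged over treatment, was -0.42 with a standard error (SE) of 0.20 and an adjusted p of 0.181 by edgeR's quasi-likelihood test.

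PCDHGA11 is an A-type gamma member. Its normalised counts were 44.5, 69.8 and 53.6 in untreated WT cells and 66.4, 61.2 and 58.7 in WT cells with TNFα. In untreated S80A cells they were 38.9, 27.6 and 66.0, and with TNFα 34.4, 66.1 and 44.0. The S80A samples spanned a wider range than the WT samples and overlapped them in both treatments. The averaged log2 fold change was -0.35 (SE 0.21, edgeR adjusted p = 0.286).

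PCDHGC4, the C-type member next to PCDHGC3, was lower in S80A cells. Its normalised counts were 18.6, 18.8 and 10.3 in untreated WT cells and 22.8, 16.8 and 15.7 in WT cells with TNFα. In untreated S80A cells they were 9.27, 8.41 and 7.81, and with TNFα 9.04, 11.8 and 5.37. Within each treatment every S80A sample lay below every WT sample by normalised counts. The same held in that direction for 13.3% of the genes tested in untreated cells and for 13.2% with TNFα. In untreated cells the raw counts of the genotypes met at 10, so the separation there rests on the scaling of the libraries. Over the 6 samples of each genotype the normalised ranges overlapped, since 1 treated S80A sample lay above the lowest untreated WT sample. The mean was 17.2 ± 4.15 (SD, n = 6) in WT and 8.62 ± 2.10 in S80A cells.

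PCDHGC4 was the 1 member called in any comparison. Of the 55 members 4 (PCDHGC3, PCDHGA11, PCDHGC4 and PCDHB2) had enough reads to be tested. Averaged over treatment, 1 of these 4 passed an adjusted p of 0.05, where 16.7% of all 14383 genes tested did, and 9.47% were lower in S80A cells. The log2 fold change of PCDHGC4 was -0.99 (SE 0.24), with an edgeR adjusted p of 0.0112. With any 1 of the 12 samples left out, the adjusted p ran from 0.00772 to 0.0384. In S80A cells PCDHGC4 had 5 to 10 counts a sample, and it passed the filter on low counts through its WT samples, where it was higher. With 1 call among 4 tests against that background, the count says nothing particular about the clusters.

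Within a single treatment 0 members were called. In untreated cells, where 6.26% of genes tested passed, PCDHGC4 had a log2 fold change of -0.90 (edgeR adjusted p = 0.151), and 2 of the 4 members had an unadjusted p under 0.05, as did 19.7% of genes. With TNFα, where 7.36% passed, its log2 fold change was -1.07 (adjusted p = 0.0720), and 1 member had an unadjusted p under 0.05, as did 22.3% of genes. DESeq2's Wald test also called 0 members within a treatment and 1 averaged over both, but with the replicate number as a block edgeR called PCDHGC4 with TNFα (log2 fold change -1.09, adjusted p = 0.0376).

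PCDHB2 had the most reads of the beta members over all samples. Its normalised counts were 13.5, 7.16 and 9.28 in untreated WT cells and 5.19, 19.8 and 6.85 with TNFα. In S80A cells they were 10.2, 2.40 and 1.74 untreated and 3.62, 5.90 and 12.9 with TNFα. The genotypes overlapped in both treatments, and the averaged log2 fold change of -0.76 had an SE of 0.46 (edgeR adjusted p = 0.305). Without the treated WT replicate 2, its log2 fold change with TNFα turned from -0.54 to 0.27.

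**Figure D2:**
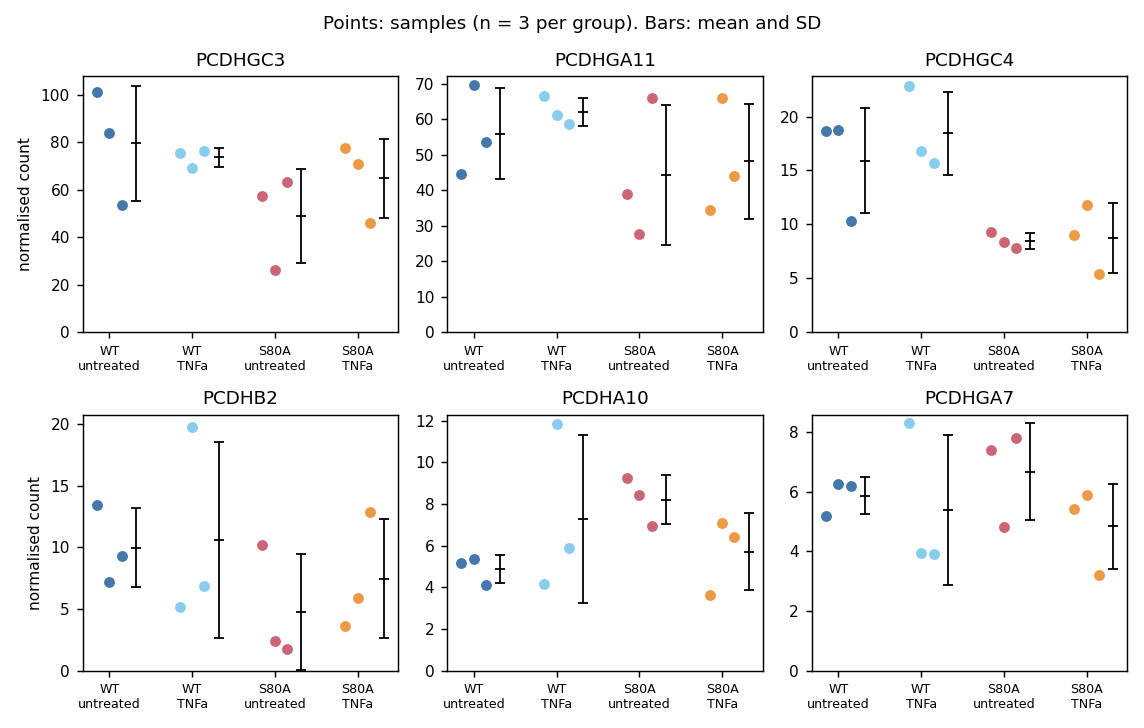
Normalised counts (y axis) of 6 members in each sample, by group (x axis). Points are samples, and the bars beside them give the mean and SD of the 3 samples. For PCDHGC4 every S80A sample lies below every WT sample of the same treatment, in untreated cells only after the libraries are scaled. For the other 5 members the genotypes overlap in at least 1 treatment.

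The values of the other tested members moved with single libraries. Untreated S80A replicate 2 held the fewest member reads, 87 in all or 5.49 CPM, while the other 11 samples held 8.20 to 13.1 CPM. It also stood furthest from its replicates over all genes, with a chi-square per gene of 38.2 and 22.4, against 2.90 to 16.3 for the other pairs of replicates. Without it, the untreated log2 fold change of PCDHGC3 went from -0.67 to -0.40 and that of PCDHGA11 from -0.32 to -0.09. Other libraries moved values away from 0. Without untreated S80A replicate 3 the untreated value was -0.74 for PCDHGA11 and -0.89 for PCDHGC3, and without untreated S80A replicate 1 that of PCDHB2 went from -0.99 to -2.22. That of PCDHGC4 was -0.90 with and without untreated S80A replicate 2, and averaged over treatment PCDHGC4 stayed called without it (adjusted p = 0.0153).

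**Figure D3:**
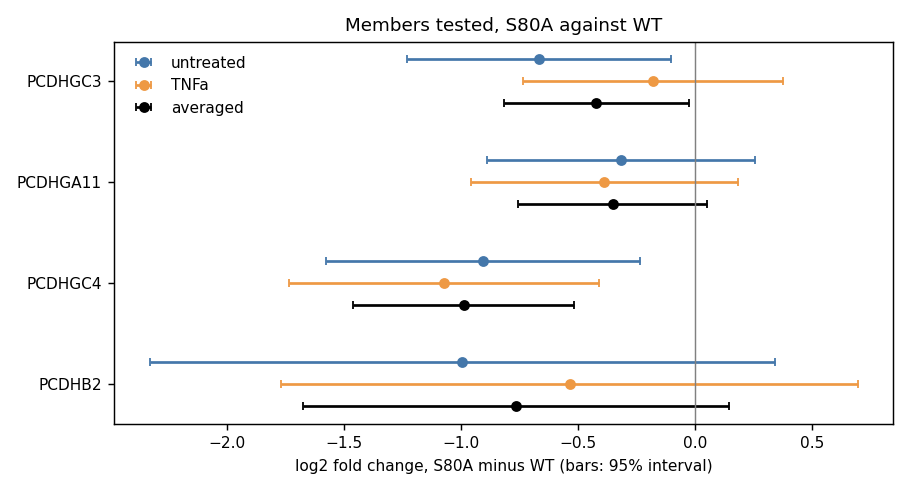
Log2 fold change of S80A against WT (x axis) for the 4 members tested, in untreated cells (blue), with TNFα (orange) and averaged over treatment (black). Bars span 1.96 standard errors on each side. Among the averaged values, that for PCDHGC4, -0.99, lies furthest from 0.

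The choice among gamma members was then described as shares of the gamma cluster's reads, which do not depend on the scaling of the libraries. PCDHGC3, PCDHGA11 and PCDHGC4 together took 77.0% to 88.4% of gamma reads in a sample. Their mean share was 85.1% ± 2.27 (SD, n = 6) in WT and 83.1% ± 3.88 in S80A cells. They were the leading gamma trio in 11 of 12 samples, and in the other (untreated S80A replicate 3) PCDHGA7 tied with PCDHGC4 at 9 counts. The next gamma member had 3 to 9 counts in every sample.

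Within the trio, PCDHGC3 took 42.5% ± 5.32 of gamma reads in WT and 42.0% ± 6.90 in S80A cells. PCDHGA11 took 33.2% ± 5.57 and 34.4% ± 6.80. Both differences were smaller than the spread between samples. PCDHGC3 had more reads than PCDHGA11 in 9 samples, fewer in 2 and as many in 1.

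PCDHGC4 took 9.45% ± 1.42 of gamma reads in WT and 6.72% ± 2.16 in S80A cells. With TNFα its share was 8.51% to 11.9% in WT and 4.81% to 6.62% in S80A samples, which did not overlap. In untreated cells it was 7.75% to 9.78% in WT and 4.97% to 10.8% in S80A samples, which did overlap. The share thus moved less than the level, since PCDHGC3 and PCDHGA11 also had lower means in S80A cells. No test was run on the shares, and how often such shares separate for other genes was not computed.

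**Figure D4:**
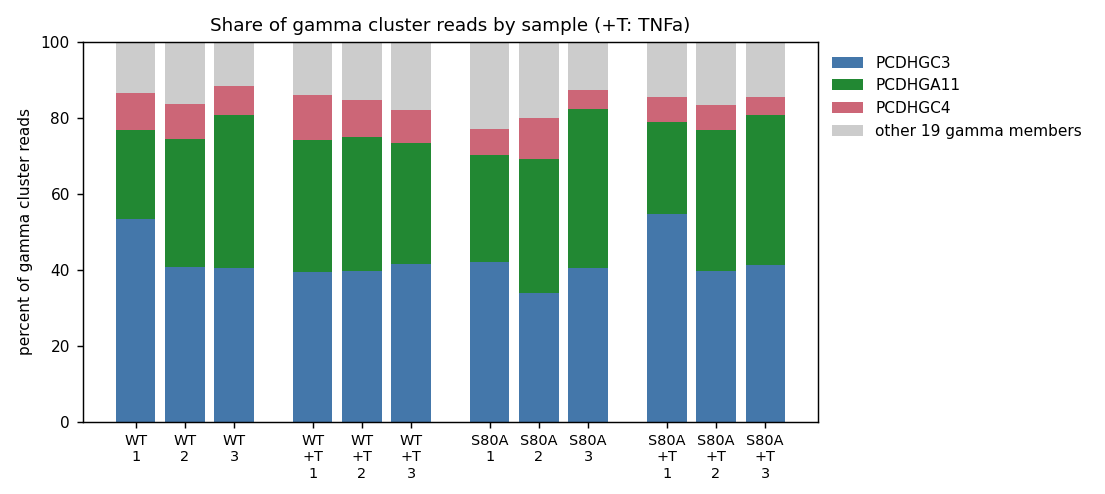
Share of gamma cluster reads (y axis, percent) taken by PCDHGC3, PCDHGA11, PCDHGC4 and the other 19 gamma members in each of the 12 samples (x axis). PCDHGC3 and PCDHGA11 fill most of each bar in both genotypes, and PCDHGC4 takes between 4.81% and 11.9%.

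Summed over the cluster, gamma members had 180 ± 25.4 normalised counts in WT (SD, n = 6) and 134 ± 35.2 in S80A cells, with ranges of 133 to 207 and 78.1 to 178. Beta members had 30.1 ± 6.30 and 32.5 ± 11.4, and alpha members 10.6 ± 4.10 and 8.996 ± 1.85. The samples of the genotypes overlapped for all 3 clusters. The gamma sum in S80A cells was 0.744 of that in WT cells, while the beta sum was 1.08 and the alpha sum 0.851 of it.

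In the alpha cluster, PCDHA10 alone was detected. It had 78 reads over all samples, followed by PCDHA11 with 17 and PCDHA1 with 13. PCDHA10's normalised counts were 5.18, 5.37 and 4.13 in untreated WT cells and 9.27, 8.41 and 6.94 in untreated S80A cells, which did not overlap. The same was so, in that direction, for 11.7% of the genes tested. With TNFα they were 4.15, 11.9 and 5.87 in WT and 3.62, 7.08 and 6.44 in S80A cells, which did. Averaged over all 6 samples PCDHA10 had 6.09 ± 2.91 in WT and 6.96 ± 1.94 in S80A cells. It was the highest alpha member, alone or tied, in 11 of 12 samples. The exception was untreated WT replicate 3, where PCDHA11 had 5 counts, and PCDHA11 had 0 in 6 of the samples. PCDHA10 was too low to be tested.

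The C-type members outside the leading trio were close to silent. PCDHAC1 had 1 read over all samples, PCDHAC2 had 0 and PCDHGC5 had 3. The C-type genes of the gamma cluster thus split into PCDHGC3 and PCDHGC4, with reads in every sample, and PCDHGC5, with at most 2 counts in any.

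In the beta cluster the leading gene was less fixed. PCDHB2 had the highest count, alone or tied, in 5 of 6 WT and 3 of 6 S80A samples. Its share of beta reads was 33.0% ± 11.7 in WT and 18.1% ± 11.7 in S80A cells (SD, n = 6), with ranges of 20% to 50% and 7.41% to 40%. In untreated cells the shares did not overlap, at 27.6% to 41.9% in WT and 7.41% to 20% in S80A samples. The lower S80A shares rest on few reads, 2 of 15 beta reads in replicate 2 and 2 of 27 in replicate 3. With TNFα the shares overlapped, at 20% to 50% and 9.76% to 40%. How often such shares separate for other genes was not computed. PCDHB15, the next beta member, had 28 reads in WT and 44 in S80A samples. In S80A cells it stood above PCDHB2, which had 36 reads there, and per kb the gap between them was within the spread of both. Its normalised counts spanned 3.09 to 7.16 in WT and 2.36 to 12.7 in S80A cells. PCDHB14 had 28 reads in WT and 20 in S80A samples, and its untreated S80A replicate 2 had 0. Over both treatments the normalised counts of all 3 overlapped between genotypes.

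PCDHB18, a pseudogene between PCDHB14 and PCDHB15, was the 1 member of the 55 whose normalised counts did not overlap between the 6 WT and the 6 S80A samples, and it was singled out after its values were seen. The raw counts of the genotypes met at 2, so the separation rests on the scaling of the libraries. It had 0, 1 and 0 counts in untreated WT cells, 2, 2 and 0 in WT cells with TNFα, 5, 2 and 3 in untreated S80A cells and 7, 2 and 3 in S80A cells with TNFα. That made 5 reads in WT and 22 in S80A cells. Of the genes tested, 3.21% lay higher without overlap in S80A cells by normalised counts. PCDHB18 was below the limit for testing, and all 6 WT samples were at or under 3 counts, so no fold is given. In its exon 5.62% of the 75-base windows were repeated elsewhere in the locus.

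The 51 members that were not tested did not move in a common direction. Of the 43 with any read, 21 had a higher mean in S80A and 22 in WT cells, and in sum they had 349 reads in WT and 347 in S80A samples. No count among them exceeded 14. 3 members were read in WT samples only and 4 in S80A samples only. Each of these 7 had at most 3 reads in all, too few to show a difference at this depth.

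The effect of TNFα was compared within each genotype. NFKB1, itself a known NF-κB target, rose 2.42-fold in WT (edgeR adjusted p = 4.99e-06) and 2.95-fold in S80A cells (adjusted p = 3.19e-07), which shows that treated samples carried a TNFα response. Gene counts cannot show the edit itself. Of the 4 members tested, 0 were called in WT cells, where 0.688% of genes tested passed, and 0 in S80A cells, where 1.26% passed. None of the 4 had an unadjusted p under 0.05 in either genotype, as against 5.97% of genes in WT and 9.59% in S80A cells, and DESeq2 called 0 too. The log2 fold changes ran from -0.11 to 0.20 in WT and from 0.03 to 0.57 in S80A cells. The intervals of 1.96 SE were -0.65 to 0.43 for PCDHGC3, -0.41 to 0.69 for PCDHGA11 and -0.39 to 0.78 for PCDHGC4 in WT cells, so changes of moderate size were not detectable at this depth. The interaction of genotype and TNFα called 0 members and 0% of genes tested by edgeR, and DESeq2 also called 0 members. For the interaction 0 members and 520 genes (3.62%) had an unadjusted p under 0.05.

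The genes that flank the clusters were compared with them next, from a list of 21 that reach 147 kb upstream and 641 kb downstream. Averaged over treatment, 2 of the 19 tested (10.5%) were called, beside 16.7% of all genes. PCDH1, a protocadherin with its own promoter and no place in the clusters, rose 1.55-fold in S80A cells (log2 fold change 0.63, SE 0.15, adjusted p = 0.00819). TMCO6 was lower, with a log2 fold change of -0.35 (SE 0.08, adjusted p = 0.00692). TAF7, a general transcription factor subunit encoded between the beta and gamma clusters, had 2460 to 2701 normalised counts in WT and 2242 to 3181 in S80A cells, with a log2 fold change of 0.04 (SE 0.07, adjusted p = 0.808). SLC25A2, the other gene between those clusters, had at most 1.20. A gene with high counts thus lay beside members with none or a few, in both genotypes.

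Genes known to act on protocadherin promoter choice were listed as 26 regulators, among them CTCF, the cohesin subunits and their loaders, DNA methyltransferases, TET enzymes and H3K9 methylation factors. All 26 were tested (WAPL under its older symbol WAPAL). Averaged over treatment, 4 were lower and 1 higher in S80A cells, or 19.2% beside 16.7% of all genes. The median log2 fold change of the list was -0.03.

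STAG1, one of the interchangeable cohesin subunits, changed most in this list. It had 2177 to 2260 normalised counts in untreated WT, 2289 to 2589 in treated WT, 1420 to 1554 in untreated S80A and 1403 to 1610 in treated S80A samples. The genotypes did not overlap, and the log2 fold change was -0.64 (SE 0.05, edgeR adjusted p = 2.97e-06). STAG2, the alternative subunit, had a log2 fold change of -0.01 (adjusted p = 0.961).

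DNMT3B, a de novo DNA methyltransferase that methylates protocadherin promoters in the embryo, was lower, at 673 to 820 normalised counts in untreated S80A against 1048 to 1077 in untreated WT cells. Its log2 fold change was -0.45 (SE 0.06, adjusted p = 0.000263). DNMT3A, the related enzyme, was higher, at 411 to 561 against 366 to 378 in the same groups. With TNFα the genotypes overlapped, at 398 to 518 in S80A and 349 to 404 in WT cells. Averaged over treatment, the log2 fold change of DNMT3A was 0.36 (SE 0.09, edgeR adjusted p = 0.0122). SMC3, a core cohesin subunit, and WAPAL, which releases cohesin, had log2 fold changes of -0.24 (adjusted p = 0.0123) and -0.18 (adjusted p = 0.0258). CTCF had a log2 fold change of -0.09 (SE 0.04, adjusted p = 0.180). With TNFα, 0 of the 26 were called in either genotype. Whether these levels play a part in the value of PCDHGC4 was not tested.

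**Figure D5:**
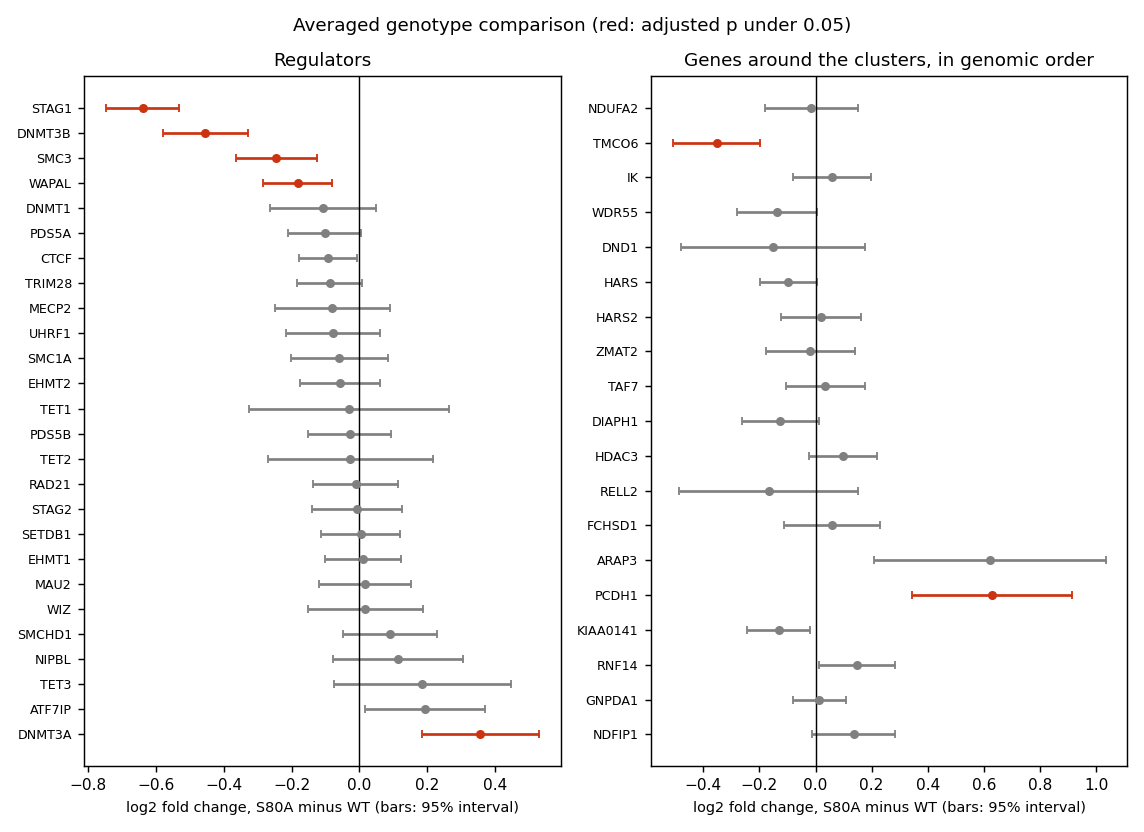
Log2 fold change of S80A against WT averaged over treatment (x axis) for the 26 regulators (left, ordered by value) and the 19 tested genes around the clusters (right, in genomic order). Bars span 1.96 standard errors on each side, and red points have an adjusted p under 0.05. STAG1 (-0.64) and DNMT3A (0.36) mark the ends of the regulator list.

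The cell line was checked against genes known from HEK293T. VIM (9168 to 14194 normalised counts), CDH2, KRT18 and NEFL were read in every sample. NEFM, a neurofilament gene, had 1709 to 2247 in WT and 2.71 to 7.21 in S80A samples. Of the other cell types checked, the leukocyte genes PTPRC and CD3E were at 0 in all samples, and the endothelial list summed to 1.96 to 7.27 in WT and 2.40 to 8.68 in S80A samples. The fibroblast list summed to 256 to 301 in WT and 115 to 146 in S80A samples, nearly all of it COL1A1. The genotypes therefore also differ in genes outside the clusters, and the part of this in the member values was not tested.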

How the data were processed

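RNA-seq was analysed for 12 HEK293T samples. The authors aligned 75-base single-end reads to GRCh38 with HISAT, and deposited raw HTSeq-count counts, 1 row per symbol. Versions and counting options are not given in the sources used here. The deposited lists of TNFα-regulated genes hold the authors' own comparisons and were not used. Samples were grouped by title. The description of 1 treated WT sample repeats that of another, but their counts differ (chi-square per gene 14.3). Nothing in the labels states how replicates were prepared, and the paper calls them independently generated, so p-values measure the spread between these samples.

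Of 33121 rows, 28 were dropped because some of their counts are dates. Counts were fitted in R 4.3.3 with edgeR 4.0.16 (filterByExpr with a minimum count of 10, TMM scaling, quasi-likelihood test, 1 mean for each of 4 groups, 14383 genes), with Benjamini-Hochberg adjustment over all genes and a threshold of 0.05. The fit was tested on simulated data. To normalise, each count was divided by its TMM-scaled library size over the mean of those sizes. Exon lengths came from canonical GENCODE 44 transcripts, an annotation other than the authors'. Promoters came from RefSeq. The promoter sequence of 1 leading member is not reported here. Alternatives included DESeq2 1.42.0, other filters and scalings, a replicate block and leaving out each sample. Tables and figures used Python 3.11.15 and matplotlib.

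Named were members called in any comparison, the 3 members with the most reads in each cluster and the C-type members, with NFKB1 and called genes of the lists. Members and lists were chosen with earlier results of these data known. Limits for 0 counts cover counting error only. Intervals of fold changes were built from the standard errors of the edgeR fit, which also take in the spread between samples.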

Additional observations from a re-analysis of the deposited data

How the results depend on the processing

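The call of PCDHGC4 averaged over treatment held with DESeq2 size factors, total-count scaling, DESeq2's Wald test, no filter and the replicate block (adjusted p from 0.00596 to 0.0219). With no filter on low counts 2 members were called averaged over treatment, PCDHGC4 and PCDHB18 (edgeR adjusted p = 0.0395, with at most 2 counts in a WT sample). With at least 10 counts in every sample 0 were called, because PCDHGC4 was then not tested. Same-numbered samples had a mean correlation of deviations of 0.118 (-0.0989 to 0.495, over 0.1 in 9 of 18 pairs). Among differently numbered samples it ran from -0.438 to 0.445, over 0.1 in 6 of 36 pairs. The main fit left the numbers out, and whether they mark a shared preparation was not tested. In untreated cells the replicate block raised the genes called in S80A against WT from 900 to 1232. With the replicate block 1 member was called with TNFα (PCDHGC4, log2 fold change -1.09, adjusted p = 0.0376), and no other member call changed. Leaving out each sample in turn left the members called at 0 to 0 within a treatment and 1 to 1 averaged over both. It turned the log2 fold change with TNFα to 0.27 for PCDHB2 (without treated WT replicate 2, range -1.19 to 0.27) and to 0.011 for PCDHGC3 (without treated S80A replicate 3, range -0.34 to 0.011), and the cause was not tested. With more than 10 counts as the limit, detected members fell to 3 in untreated WT, 3 in treated WT, 2 in untreated S80A and 2 in treated S80A cells. Per base of unshared exon, shares moved by less than 1 SD for the 5 members examined. Leaving out 1 of 3 samples cannot move a group mean by 1 SD, so that check says nothing about how steady the shares are. The background counts of all genes were less steady. In untreated cells S80A against WT called 900 genes, 456 in a fit of those 6 samples and 356 to 1039 with 1 sample left out. With TNFα it called 1058, and 434 to 1646 with 1 left out. TNFα in WT called 99, 158 by DESeq2 and 65 to 145 with 1 left out, and in S80A cells 181, 71 in a fit of those 6 samples and 98 to 193 with 1 left out. Depth limits the result, since 49 of the 55 members had at most 10 counts in every sample.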

Other observations

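Protocadherins outside the clusters were expressed at higher counts than most members. Of 11 listed, 8 were tested, and averaged over treatment 3 (37.5%) were called in S80A against WT cells, beside 16.7% of all genes. PCDH1 and PCDH7 were higher and PCDH20 was lower. PCDH20 had 155 to 187 normalised counts in untreated WT and 130 to 137 in untreated S80A cells (log2 fold change -0.42, SE 0.08, edgeR adjusted p = 0.00268 averaged over treatment). PCDH7 had 724 to 821 and 909 to 1170 in the same groups. With TNFα its ranges overlapped, at 598 to 764 in WT and 675 to 969 in S80A cells. Its log2 fold change averaged over treatment was 0.32 (SE 0.10, edgeR adjusted p = 0.0356). With TNFα, PCDH18 had a log2 fold change of -0.76 in S80A cells (adjusted p = 0.0452) and -0.72 in WT cells (adjusted p = 0.0810).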
